A study of Bos taurus with 2 samples.

Results

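The 38 HOX genes described here belong to the HOXA, HOXB, HOXC and HOXD clusters of cattle (Bos taurus). They were taken by name from 21162 protein-coding genes on chromosomes 1 to 29 and X. Their promoters and the whole clusters were described by CpG methylation from whole-genome bisulfite sequencing (WGBS), in which bisulfite converts unmethylated cytosines and a read then calls every CpG cytosine it covers as methylated or not. The samples were 2 samples of genomic DNA from bone, labelled as female Holstein and listed as bone samples 1 and 2. The labels name no treatment, age, time or skeletal site, and nothing says whether the samples came from separate animals. Each SD and each test below therefore covers only the spread between these samples, which may be technical.

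HOX genes encode homeodomain transcription factors that give cells their position along the body axis and the limbs. Within a cluster the genes stand in the order of their paralogue groups, and they are transcribed in the same direction, from the group 13 end towards the group 1 end. Genes of groups 1 to 3 are known for the hindbrain, the branchial arches and the neck, those of groups 4 to 8 for the neck and the trunk, and those of groups 9 to 13 for the lumbar and tail regions and for the limbs. These classes are called anterior, central and posterior here. Skeletal and connective tissue cells of the adult are known to keep a HOX expression pattern that reflects where in the body they were formed. Clustered HOX genes are dense in CpG sites and are a classical target of Polycomb repression, which commonly goes with low DNA methylation, so that low methylation of a HOX promoter does not by itself mean that the gene is transcribed.

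The deposited counts hold 582241763 calls for bone sample 1 and 440334436 for bone sample 2, and 462047525 and 406703424 of these map to chromosomes 1 to 29 and X. Over those chromosomes the level was 72.3% and 58.7%, so bone sample 2 was lower over the chromosomes as a whole. Over promoters the medians were 12.8% and 17.1%, in the opposite order, although 11654 of 20921 promoters were lower in bone sample 2 and the median difference per promoter was -0.38 points, as bone sample 2 minus bone sample 1. Each CpG site of a HOX promoter had on average 16.6 calls in the first library and 6.68 in the other, against 19.8 and 7.59 over all promoters. The labelled tissue was checked against the promoters of known marker genes. Of 12 bone cell markers 11 could be measured, that is, were in the annotation with 20 or more calls in each sample. Of these 3 were under 20% in both samples. SP7, a transcription factor of osteoblasts, was at 2.04% and 10.2%. The type I collagen genes were at 12.7% and 17.3% for COL1A1 and at 11.6% and 5.49% for COL1A2. Over 50% in both samples were 6 of the 11, or 54.5%, where the share over all promoters was 26.2%. They were RUNX2, BGLAP, DMP1, SOST, MEPE and ALPL, with BGLAP at 87.3% and 56.5%. Of the 12 white blood cell markers 1 was under 20% in both samples, CORO1A, and PTPRC, the common leukocyte antigen, was at 34.3% and 42.1%. None of 6 liver markers, 1 of 6 fat cell markers, 2 of 6 muscle markers and 4 of 6 cartilage markers were under 20% in both. The share over all promoters was 51.1%, against 27.3% of the bone cell markers. The median number of CpG sites was 29 for bone cell markers and 100.5 for cartilage markers, and its part in these counts was not tested. The bone cell promoters ranged from 2.04% to 87.3% in bone sample 1 and from 5.49% to 63.0% in bone sample 2, and those of white blood cells from 6.95% to 85.8% and from 12.6% to 74.6%. The part of the cell mixture in the HOX levels was not tested.

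A promoter was the interval from 1000 bp before to 500 bp after the annotated start, and its level was the summed methylated calls over all calls of both strands, in percent. All 38 HOX promoters passed the minimum of 20 calls in each sample, with 114 to 3635 calls in the first library and 226 to 1014 in the other. Intervals given below are 95% Wilson intervals of the calls. They describe the error of counting alone, because no molecular identifiers separate copies of a molecule and neighbouring sites are often called on the same read. HOXA5 and HOXA6 share an annotated start, so their promoters are the same interval, and the 38 members form 37 distinct promoters. Where a level lies between the extremes, methylation in a share of the cells and methylation of a share of the alleles in every cell cannot be told apart. A promoter level by itself also does not show how its sites differ, for which levels of bins or sites are given at some members below.

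Most HOX promoters carried little methylation in bone, and the highest levels were at genes of low group number. This order is one of gene names, since the annotated start of a long gene can lie well before the genes that precede it by group. The median over the HOX promoters came to 8.65% in bone sample 1 and to 7.89% in bone sample 2, or 8.27% ± 0.538 (SD, n = 2), against those 12.8% and 17.1% over the 20921 protein-coding promoters tested. Of the HOX promoters 26 were under 20% in both samples, or 68.4%, where the share over all promoters was 51.1%. That share takes the end of each other gene with more CpG sites as its start, whereas HOX starts follow the cluster order, and with both ends of every gene counted it was 27.6%. Only 5 members, all of groups 1 to 4, were over 50% in both samples, where the share over all promoters was 26.2%. These were HOXB1, HOXC4, HOXA3, HOXA4 and HOXD3. The remaining 7 met neither condition. HOXC6, at 17.1% in bone sample 2, was just inside the bound of 20%, and HOXD10, at 21.1% and 18.1%, was just outside it.

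**Figure D1:**
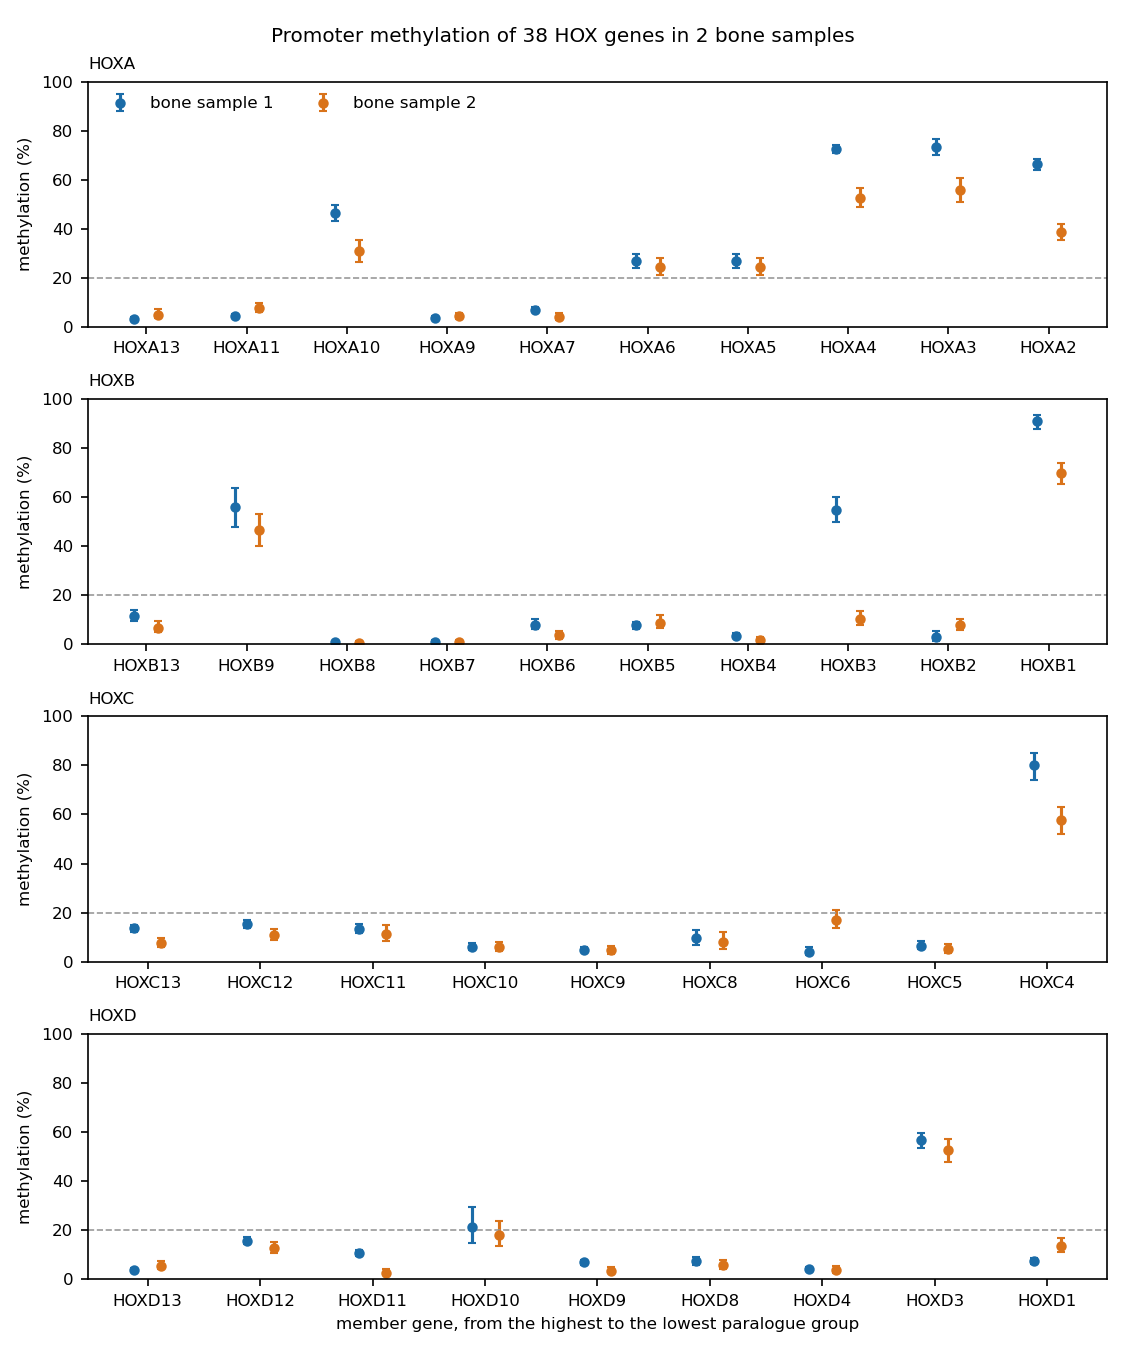
Promoter methylation (percent, y axis) of each HOX gene in bone samples 1 and 2, with 1 panel per cluster and genes ordered by paralogue group from 13 to 1. Points are weighted levels, bars are 95% Wilson intervals and the dashed line marks 20%, and the points far above the line stand mostly at the right of each panel, with HOXA10 and HOXB9 as exceptions at the left.

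By class, the medians were 56.6% and 38.7% over the 7 anterior promoters, 7.21% and 5.62% over the 15 central ones, and 11.04% and 7.16% over the 16 posterior ones. The classes also differed in CpG number, with a median of 49 sites in anterior, 98 in central and 99 in posterior promoters. The part of this number in the class levels was not tested. Under 20% in both samples were 2 anterior, 11 central and 13 posterior members, and over 50% in both were 3, 2 and 0. The clusters differed as well, with 4 of 10 HOXA, 7 of 10 HOXB, 8 of 9 HOXC and 7 of 9 HOXD promoters under 20% in both samples. Class and cluster were not tested against each other, because genes are not replicates of a condition.

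Among the anterior genes, HOXB1, which sets the identity of a hindbrain segment, had the highest promoter methylation of all members. It was 91.1% in bone sample 1 (87.9 to 93.5%, 393 calls) and 69.9% in bone sample 2 (65.4 to 74.1%, 429 calls), or 80.5% ± 15.0 (SD, n = 2), which is at percentile 96.8 of all promoters. The promoter of HOXA3, a gene needed for the thymus, the parathyroid and neck structures, was at 73.5% (637 calls) and 55.7% (393 calls). That of HOXA2, which patterns the skeleton of the second branchial arch, was at 66.2% (63.8 to 68.5%) and 38.7% (35.4 to 42.0%), or 52.5% ± 19.5 (SD, n = 2). The intervals of the samples did not overlap at any of these 3 genes, and bone sample 2 was the lower at each. The share of all promoters without such overlap was not counted. By Fisher's exact test, 36.9% of all promoters were lower in bone sample 2 at an adjusted p under 0.05. At HOXA3 the difference between the samples was -11.05 points within 250 bp of the start. It did not pass the test there (adjusted p = 0.147, Fisher's exact test). In the first 250 bp after the start bone sample 2 was the higher, at 69.3% against 55.6%.

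HOXD3, which acts with HOXA3 on the upper neck vertebrae, was at 56.6% (53.6 to 59.5%) in bone sample 1 and 52.5% (47.8 to 57.1%) in bone sample 2. Unlike at the anterior genes above, these intervals overlapped, and the difference did not pass the test (adjusted p = 0.211, Fisher's exact test). Within 250 bp of the start the difference was -15.2 points and passed (adjusted p = 0.00368, Fisher's exact test). From 2000 bp before the start it was -8.41 points and passed (adjusted p = 0.000108, Fisher's exact test). On the top strand it was -13.3 points and passed (adjusted p = 0.0128, Fisher's exact test). On the bottom strand it was -6.69 points and did not pass (adjusted p = 0.159, Fisher's exact test). The call at HOXD3 thus depended on interval and strand. The other 3 anterior promoters were lower in at least 1 sample. HOXB2, a hindbrain gene, was at 2.76% and 7.80%, HOXD1 at 7.35% and 13.6%, and HOXB3 at 54.9% in bone sample 1 but 10.5% in bone sample 2.

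Low methylation was the rule among the central genes. The lowest levels of all members were at the neighbours HOXB8 and HOXB7, trunk genes whose promoters were at 0.820% (0.547 to 1.23%) and 0.946% (0.574 to 1.55%) in bone sample 1 and at 0.493% (0.211 to 1.15%) and 0.778% (0.357 to 1.69%) in bone sample 2. These lay at percentiles 6.47 and 9.28 of the mean level of all promoters. HOXB4, a gene known for its action in blood stem cells, followed at 3.47% of 1498 calls and 1.59% of 629 calls, and HOXD4 at 4.07% of 1820 calls and 3.83% of 758 calls. All 5 central HOXB promoters were at or under 7.85% in bone sample 1 and at or under 8.83% in bone sample 2.

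The central exceptions lay in HOXA and at the end of HOXC. HOXA4, known for the patterning of the neck vertebrae, had 147 CpG sites in its promoter and was nonetheless at 72.6% (71.0 to 74.1%, 3034 calls) in bone sample 1 and 52.7% (48.7 to 56.7%, 592 calls) in bone sample 2. HOXC4, the last gene of its cluster, was at 80.2% (74.2 to 85.1%, 207 calls) and 57.7% (52.1 to 63.1%, 305 calls), or 68.9% ± 15.9 (SD, n = 2). The promoter shared by HOXA5 and HOXA6 was at 26.8% and 24.3%, with overlapping intervals. In HOXA thus only HOXA7, at 6.95% and 3.94%, was low among the 4 central members, against 5 of 5 in HOXB, 3 of 4 in HOXC and 2 of 2 in HOXD.

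Posterior promoters were under 20% in both samples at 13 of 16 members. The group 13 genes, which stand at the outer end of each cluster, were at 2.99% and 5.03% for HOXA13, a gene of digits and the urogenital tract, and at 3.89% and 5.50% for HOXD13, a gene whose mutations fuse or duplicate digits. HOXB13, known for its expression in tail and prostate, was at 11.4% and 6.79%, and HOXC13, known for hair and nails, at 13.5% and 7.54%. HOXA and HOXD thus started lower than HOXB and HOXC in bone sample 1, while in bone sample 2 the intervals of all 4 genes overlapped.

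The posterior exceptions were HOXA10, HOXB9 and HOXD10. HOXA10, a gene of the lumbar spine and the uterus, was at 46.3% (43.1 to 49.5%, 927 calls) in bone sample 1 and 30.9% (26.6 to 35.5%, 405 calls) in bone sample 2. Around its annotated start the level was lowest in the first 250 bp, at 13.8% and 9.68%, and it rose to 65.3% and 49.5% in the bin that begins 500 bp after the start. HOXB9, a gene of the thoracic ribs, was at 55.9% (47.8 to 63.8%, 143 calls) and 46.5% (40.1 to 53.0%, 226 calls), and HOXD10 rested on 114 and 226 calls. The HOXB9 level depended on the interval, since from 2000 bp before to 500 bp after the start the mean of both samples moved by -27.2 points, and the bin that begins 1500 bp before the start was at 0% of 126 calls and 2.56% of 117 calls. The other posterior promoters ranged from 2.99% to 15.6% in bone sample 1 and from 2.50% to 12.7% in bone sample 2, all 5 posterior HOXC promoters among them.

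A promoter's level varies with its number of CpG sites, and HOX promoters held a median of 87 of them against 69 over all promoters. Of the 27 HOX promoters with 60 or more CpG sites, 21 were under 20% in both samples, or 77.8%, against 79.8% of all 11987 promoters of that kind. In this class the share of low HOX promoters was near that of all promoters, with starts set in the unlike ways given above. With 40 to 59 CpG sites 5 of 6 HOX promoters were low in both samples, where the share over all such promoters was 39.1%. With 60 or more sites the HOX median was 7.35% and 6.79%, against 3.66% and 6.87% over all such promoters. Over 50% in both samples were HOXA4 and HOXD3, or 7.41%, against 3.55%. Among the 16 HOX promoters with 100 or more CpG sites 15 were low and HOXA4 alone was over 50% in both, where the share over all such promoters was 1.00%. The 5 HOX promoters with 20 to 39 CpG sites, HOXB1, HOXB3, HOXB9, HOXC4 and HOXD10, held none under 20% in both samples, where 188 of 3136 such promoters were. Over 50% in both samples were 2 of these 5, HOXB1 and HOXC4, where the share over all such promoters was 66.1%.

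**Figure D2:**
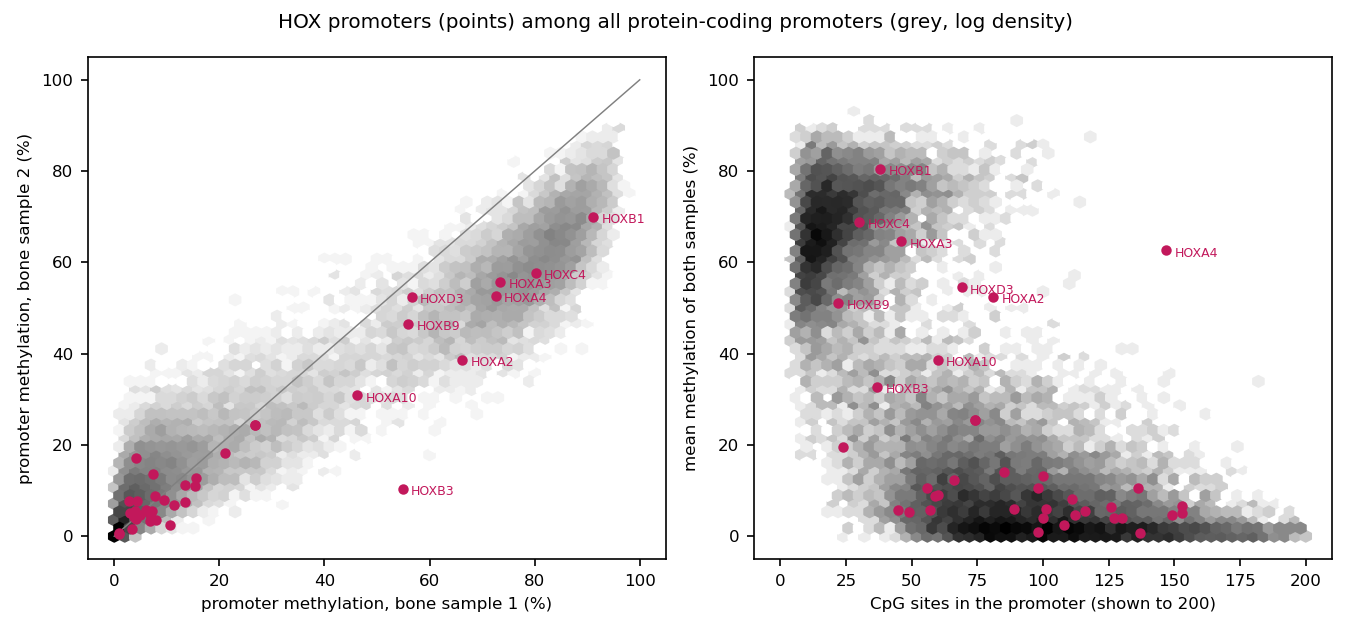
HOX promoters (red points) among all protein-coding promoters (grey, darker where more promoters lie, on a log density scale). The left panel plots the level in bone sample 2 against that in bone sample 1, both in percent, with the line of equality, and the right panel plots the mean of both samples against the number of CpG sites up to 200. HOXB3 stands off the main band on the left, and HOXA4 is the only HOX promoter with 100 or more CpG sites over 50% in both samples on the right.

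Around the annotated start, the low methylation of HOX genes reached farther out than that of other genes. In bins of 250 bp the median HOX level in the bin just before the start was 5.29% and 6.25%, higher than the 1.09% and 1.10% of the other protein-coding genes. Away from the start the order was the opposite. In the bin that begins 1000 bp before the start HOX genes were at 17.3% and 11.8%, and other genes at 65.9% and 48.4%. In the bin that begins 1750 bp after it, they were at 20.8% and 25.5%, and other genes at 79.3% and 60.3%. The dip was thus shallower and wider at HOX genes in both samples. The starts were not chosen alike, since for other genes the end with more CpG sites was taken as the start, while HOX starts follow the cluster order and are the richer end at 28 of 38 genes, and the part of this choice in the depth of the dip was not tested. These medians rest on 23 to 36 of the 38 genes per bin, those with enough calls.

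**Figure D3:**
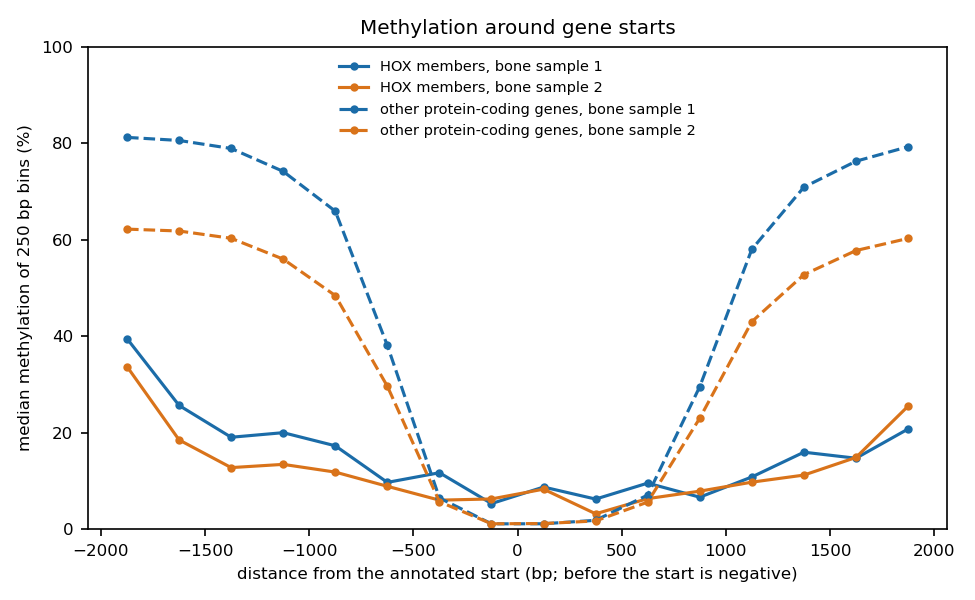
Median methylation (percent) of bins of 250 bp against the distance from the annotated start (bp), for HOX genes (solid lines) and all other protein-coding genes (dashed lines) in bone samples 1 and 2. The dashed lines climb steeply to 79.3% and 60.3% at the right edge, while the solid lines stay at or under 39.5% throughout.

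The annotated start is the outermost one of each gene, and for some HOX genes it lies far from the part that encodes the protein. The annotated length was 54953 bp for HOXB3, 32433 bp for HOXA3, 25528 bp for HOXD3 and 17323 bp for HOXC4, whereas HOXB1 spans 1360 bp. The last 3000 bp of each gene were therefore measured as well, a choice made after the data were seen. In this stretch HOXC4 was at 17.8% and 9.57% in place of 80.2% and 57.7%, and HOXD3 at 12.6% and 25.9% in place of 56.6% and 52.5%. HOXA10 was likewise at 3.12% and 8.79% there. HOXA3 was high at this end too, at 83.0% and 65.2%. HOXA4, HOXA2 and HOXB1 are 2215, 1980 and 1360 bp long, so for them the stretch takes in their start and says nothing apart from the promoter. HOXB3 was higher there, at 79.8% and 60.03%, as was HOXA5, whose annotated start is that of HOXA6, at 68.7% and 50.6%. Low promoters moved as well, with HOXD4, 16552 bp long, at 48.0% and 38.9% in this stretch and HOXA11 at 37.9% and 25.6%. HOXA3 was thus methylated at both ends, while at HOXC4, HOXD3, HOXA10, HOXD4 and HOXA11, among others, the level depended on the stretch measured.

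As whole regions the 4 clusters were less methylated than the chromosomes that hold them, HOXC and HOXD the most so. In the coordinates of the counts, which the submitters' processing notes give as build ARS-UCD1.2, HOXA covers chromosome 4 from 68842244 to 68941167 and was at 37.1% and 30.6%, or 33.9% ± 4.65 (SD, n = 2), against 74.4% and 59.9% for its chromosome. HOXB, on chromosome 19 from 37791933 to 37959246, was at 32.1% and 28.1%, or 30.1% ± 2.83, against 69.6% and 58.1%. HOXC, on chromosome 5 from 25977672 to 26093548, was at 16.4% and 16.5%, or 16.4% ± 0.0116, against 72.9% and 59.2%. HOXD, on chromosome 2 from 20724560 to 20820798, was at 18.9% and 21.8%, or 20.4% ± 2.05, against 70.6% and 59.1%. HOXA and HOXB were higher than HOXC and HOXD in each sample, and HOXA was above HOXB in each. HOXD was above HOXC in each sample, by more than their Wilson intervals.

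By summed calls, bone sample 2 was lower than bone sample 1 over each of these chromosomes, but among the clusters only in HOXA and HOXB. In HOXC the summed levels differed by less than their intervals, 16.1 to 16.8% and 16.1 to 16.9%, and in HOXD that of bone sample 2 was the higher. With each window of 1 kb counted alike, bone sample 2 was the lower in every cluster. The median over windows with 20 or more calls in each sample was 18.3% and 16.3% in HOXC and 22.2% and 19.9% in HOXD. In HOXA it was 53.4% and 41.5%, and in HOXB 57.4% and 40.8%. The clusters held 39.3, 27.3, 31.2 and 35.6 CpG sites per kb in the order HOXA to HOXD, against 9.15, 15.2, 10.2 and 8.86 on their chromosomes. The low level was not limited to promoters. The parts of the clusters between genes were at 33.5% and 28.0% in HOXA, 35.0% and 34.6% in HOXB, 20.4% and 18.5% in HOXC and 21.8% and 22.2% in HOXD, and gene bodies at 41.3% and 33.6%, 36.3% and 27.5%, 15.4% and 16.2%, and 22.3% and 24.7%. Outside the clusters, the 100 kb beyond the group 1 to 4 end were at 61.1% and 55.4% for HOXA, 71.0% and 59.7% for HOXB, 66.8% and 49.6% for HOXC and 77.2% and 64.4% for HOXD. The 100 kb before the group 13 end were lower at HOXA, with 32.9% and 36.5%, and at HOXD, with 31.7% and 37.7%, than at HOXB, with 47.7% and 40.04%, and HOXC, with 59.1% and 46.4%.

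Within HOXA, HOXC and HOXD the posterior side was the less methylated. Each cluster was split at the end of its last posterior gene. The side of groups 9 to 13 was at 16.9% and 18.4% in HOXA, 13.4% and 12.9% in HOXC and 11.05% and 10.98% in HOXD. The side of groups 1 to 8 was at 51.8% and 39.02%, 22.0% and 20.9%, and 25.1% and 28.6%. HOXB did not share this order in both samples, with 30.2% and 33.5% on the side of groups 9 to 13 and 33.2% and 24.0% on the other. The long stretch between HOXB13 and HOXB9 held most of the methylated windows of that side, 34 of whose 75 tested windows of 1 kb were over 50% in both samples.

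In HOXA, the last window under 20% in both samples ended at 68895000. Of the 44 tested windows from there to the end of the cluster 20 were over 50% in both samples, and their medians were 73.5% and 49.1%. The point was chosen from these levels, so that few low windows lie beyond it is no finding. These windows hold the annotated starts of HOXA3, HOXA4 and HOXA2, the promoters given above as methylated. On the side of groups 9 to 13, 19 of 37 tested windows were low in both samples and 4 were over 50%. The HOXA windows between that side and the chosen point were mixed, from 0.588% to 49.7% in bone sample 1 and from 0.207% to 45.4% in bone sample 2. The longest methylated stretch of HOXA, 8 windows in a row over 50% in both samples from 68912001 to 68920000, began within the HOXA4 promoter and held 224 CpG sites at 70.4% and 63.4%.

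**Figure D4:**
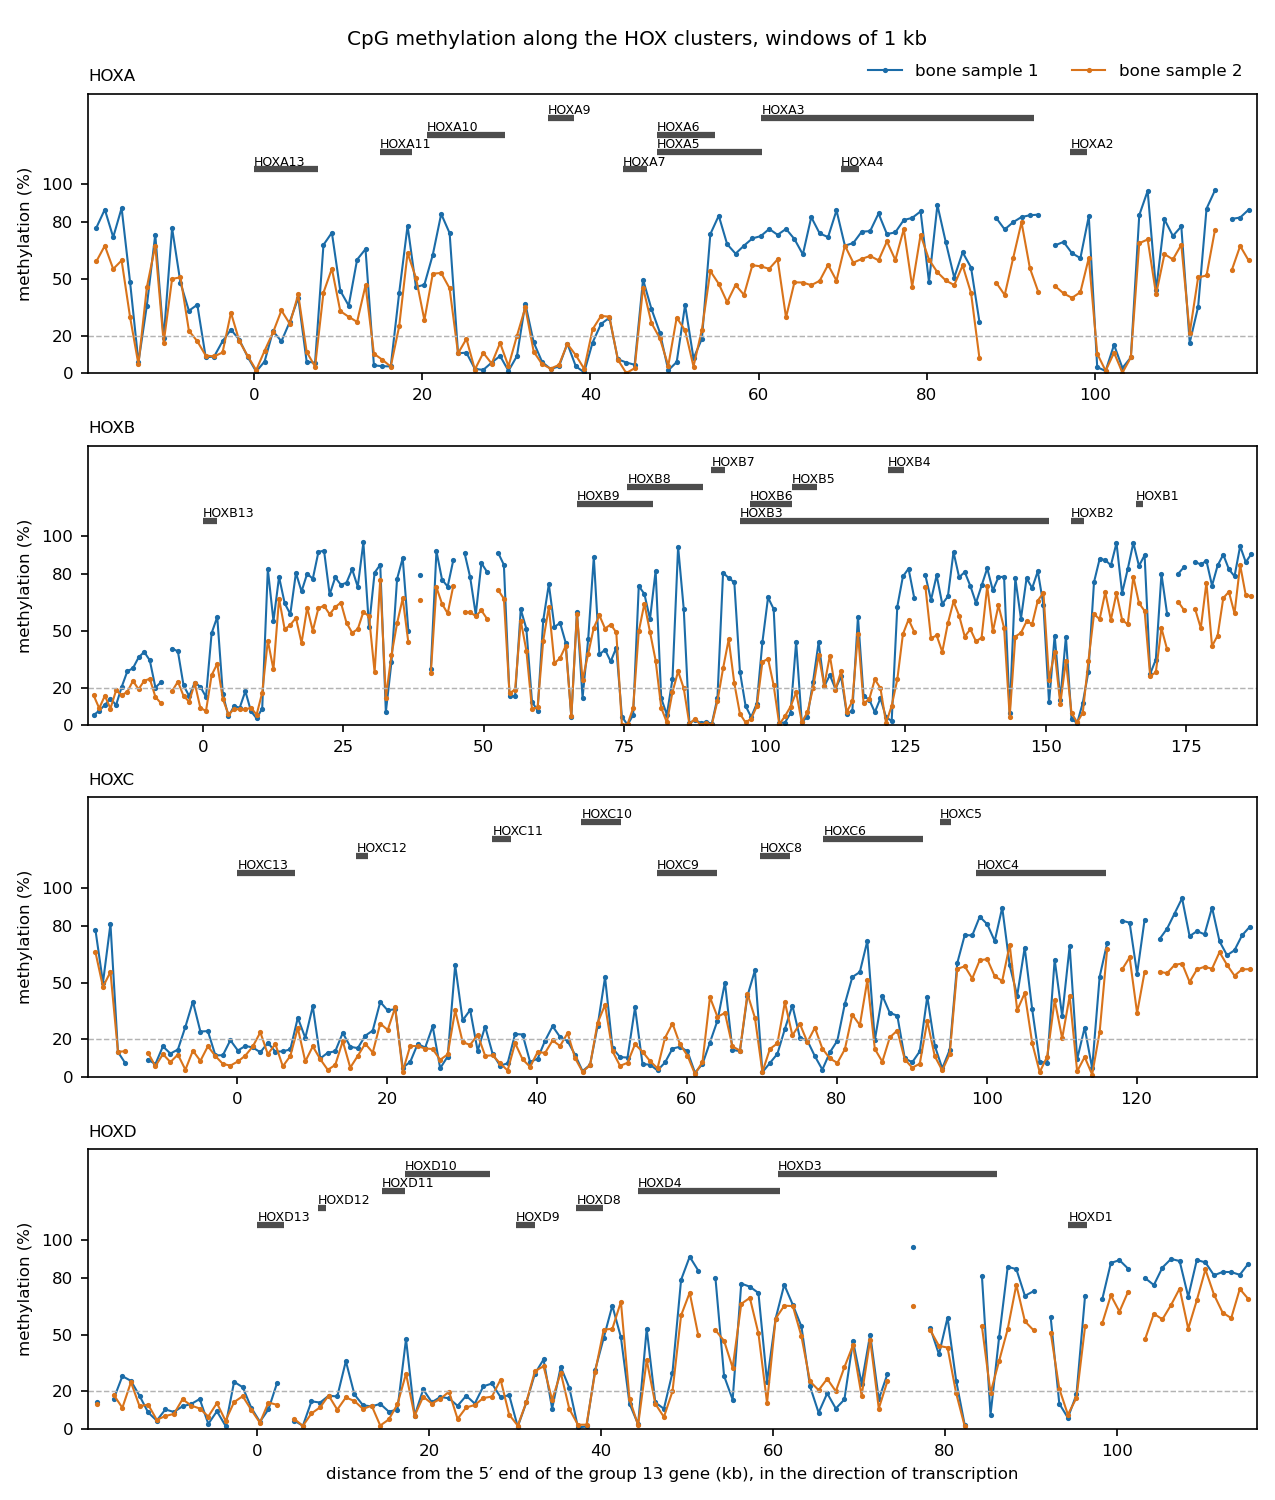
Methylation (percent) of windows of 1 kb along each HOX cluster in bone samples 1 and 2 against the distance (kb) from the 5′ end of the group 13 gene, in the direction of transcription, with annotated genes as grey bars and 20% as a dashed line. Gaps are windows with under 20 calls in a sample. In HOXA both lines rise before HOXA3 and stay up over most of it, apart from a dip to 27.3% and 8.03%, while HOXC and HOXD stay mostly near or under 20% on their left.

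Windows with little methylation made up a large share of the clusters. Of 475 windows of 1 kb in the clusters 461 had 20 or more calls in each sample, and their median level was 32.4% and 26.6% against 79.2% and 60.5% over the genome. Under 20% were 40.1% of them by bone sample 1 and 43.2% by bone sample 2, or 41.6% ± 2.15 (SD, n = 2). Under 20% in both samples were 164 windows, or 35.6%, where the share over the 2189146 windows of chromosomes 1 to 29 and X was 1.50%. Over 50% in both were 107, or 23.2%, where the genome-wide share was 77.9%. By share of low windows, HOXC came first with 56 of 115, followed by HOXD with 35 of 88, HOXB with 47 of 162 and HOXA with 26 of 96.

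Windows of like CpG number were low more often inside the clusters than over the genome. Among windows with 40 or more CpG sites 112 of 163 HOX windows were low in both samples, or 68.7%, where the share over the genome was 37.7%. With 20 to 39 sites the shares were 30.1% and 3.30%, with 10 to 19 sites 17.5% and 0.373%, and with 1 to 9 sites 3.26% and 0.143%. The genome-wide windows include the HOX windows. The share was thus higher inside the clusters in each of the 4 classes, in contrast to the promoters with 60 or more CpG sites above.

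**Figure D5:**
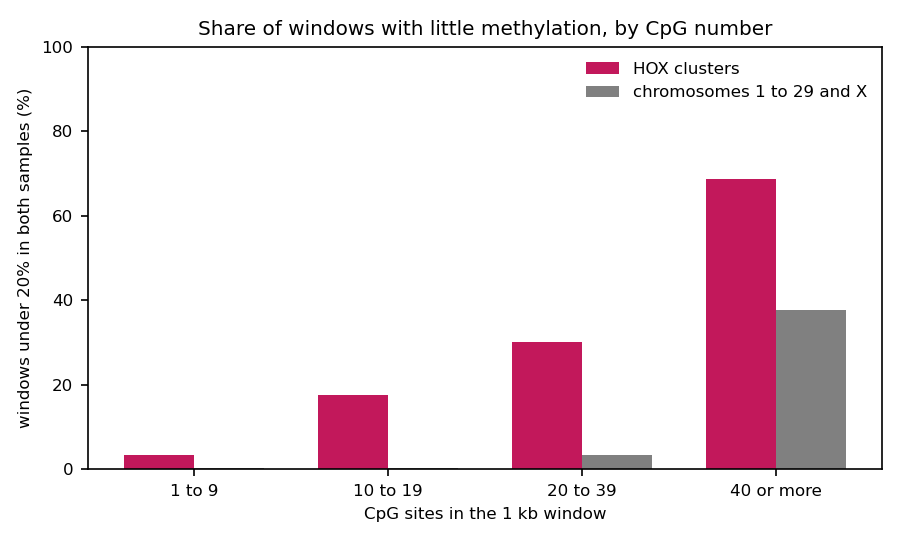
Share of windows of 1 kb under 20% in both samples (percent, y axis from 0) by the number of CpG sites in the window, for the HOX clusters (red bars) and chromosomes 1 to 29 and X (grey bars). The red bar is the taller in every class, from 3.26% against 0.143% at 1 to 9 sites to 68.7% against 37.7% at 40 or more.

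Under the bound set for a low window, the low windows came as many short stretches. A window just over this bound ends a run, and no other bound was tried for runs. On the sides of groups 9 to 13, 36 of 63 tested windows were low in both samples in HOXC and 23 of 30 in HOXD. On each of these sides 0 windows were over 50% in both samples, so the short runs do not exclude a wider region of little methylation. The longest runs of low windows in the clusters were 8 kb, in HOXA from 68866001 to 68874000 at 5.75% and 9.22% over 452 CpG sites, and in HOXB from 37795001 to 37803000 at 10.3% and 9.34% over 384 sites. The longest run on any chromosome was 23 windows. Of the 411 runs of 5 windows or more 8 lay in HOX clusters, of the 80 runs of 8 or more 2 did, and of the 40 runs of 10 or more 0. These counts are to be read against the share of the clusters in all tested windows, 461 of 2189146. The HOXA run lies downstream of the annotated start of HOXA10, and the HOXB run lies beyond HOXB13. A run of 7 kb held the start of HOXA9, and runs of 6 kb held those of HOXC13, HOXB7, HOXD12 and HOXD11. Methylated runs, over 50% in both samples, reached 10 kb in HOXB from 37950001 to 37960000 around HOXB1, at 86.8% and 64.8%, and 8 kb in HOXC from 25990001 to 25998000 around the annotated start of HOXC4, at 73.9% and 58.1%.

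Between the samples, the 5 largest differences in points among HOX promoters were at HOXB3, HOXA2, HOXC4, HOXB1 and HOXA4, all over 50% in bone sample 1 and lower in bone sample 2. A promoter near 0 can fall by few points only. HOXD3, over 50% in both samples, differed by -4.11 points by summed calls, but by -15.5 points unweighted over shared sites. The summed calls of each promoter were compared with Fisher's exact test, two-sided, with Benjamini-Hochberg adjustment over all 20921 promoters, and 20 of 38 HOX promoters differed at an adjusted p under 0.05, where the share over all promoters was 63.8%. Of these 15 were lower in bone sample 2, with a share of 36.9% over all promoters, and 5 were higher, with a share of 26.9%. The count among HOX genes was therefore not above that among promoters at large. The test compares the 2 libraries, not conditions, and since calls on a read are not independent its p-values are too small. Of the 38 promoters 4 differed by 20 percentage points or more and passed the test, all lower in bone sample 2, where the share over all promoters was 15.5% in either direction and 14.6% lower. The odds of methylation summed over all promoters were lower in bone sample 1, by an odds ratio of 0.849. Against this ratio in place of 1, 24 HOX promoters differed, where the share over all promoters was 64.8%, and 20 of them were lower in bone sample 2 than the ratio gives, where the share was 42.6%. Without a test, 30 of 38 were lower in bone sample 2, where 11654 of 20921 were over all promoters. With 60 or more CpG sites 21 of 27 HOX promoters were lower, where 4264 of 11987 were over all such promoters.

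HOXB3, a hindbrain and neck gene, differed the most of all members. Its annotated start, and so the interval measured, lies between the starts of HOXB7 and HOXB6, in the central part of the cluster. Its promoter was at 54.9% (49.8 to 59.8%, 379 calls) in bone sample 1 and 10.5% (8.02 to 13.5%, 478 calls) in bone sample 2, which is -44.4 points as the level of bone sample 2 minus that of bone sample 1 (Fisher's exact test, adjusted p = 5.44e-44). The top and bottom strands were at 50.6% and 100% in bone sample 1 and at 10.03% and 11.4% in bone sample 2. Along the 2000 bp before the annotated start, bone sample 1 stayed at 69.2% to 96.8% in every bin from 2000 to 251 bp before it. Bone sample 2 fell over the same bins from 64.0% through 37.5%, 26.1%, 22.0%, 18.7% and 15.6% to 12.7%. In the first 250 bp after the start both were low, at 10% and 4.19%. The samples thus differed upstream of the start, and over 250 bp on either side of the start the difference was -6.03 points and did not pass the test (adjusted p = 0.179, Fisher's exact test). The upstream bins from 1000 bp on rested on 31 to 130 calls in bone sample 1 and 55 to 107 in bone sample 2.

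The next largest differences were at HOXA2, HOXC4, HOXB1 and HOXA4, where it was -27.6, -22.5, -21.2 and -19.9 points. Their adjusted p-values by Fisher's exact test were 4.91e-36, 2.81e-07, 8.47e-14 and 2.42e-19. At HOXA2 the site levels, over 46 sites with 10 or more calls in each sample, ranged from 43.3% to 75.0% with a median of 64.6% in bone sample 1 and from 16.7% to 66.7% with a median of 39.6% in bone sample 2. At HOXA4 the call was lost within 250 bp of the start, where the difference was -9.88 points (adjusted p = 0.113, Fisher's exact test), and over 34 sites with 5 or more calls in both samples the unweighted means, 88.0% and 43.2%, lay farther apart than the weighted levels. In the bin that begins 250 bp after the start bone sample 2 was the higher, at 89.5% of 38 calls against 69.3% of 1125 calls. The top and bottom strands of HOXA4 in bone sample 1 were at 89.1% and 64.6%. At HOXC4 the top strand alone gave -14.2 points (adjusted p = 0.11, Fisher's exact test). The gap between the samples over whole chromosomes, 72.3% against 58.7%, goes in the same direction as all of these, and the part it has in them was not tested.

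HOXA10, with a difference of -15.4 points (adjusted p = 4.80e-07, Fisher's exact test), turned with the strand and was past the threshold both ways. On the bottom strand alone it was 12.1% and 34.0%, 21.9 points in the other direction (adjusted p = 0.000184, Fisher's exact test). Next to the start the samples were closer, with HOXA10 at 16.6% and 14.3% in the bin just before it and at 13.8% and 9.68% in the bin just after. HOXB4, with a difference of -1.88 points (adjusted p = 0.0274, Fisher's exact test), was 3.83 points higher with the interval from 2000 bp before the start (adjusted p = 0.000327, Fisher's exact test).

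The 5 promoters called higher in bone sample 2 were HOXC6, HOXD1, HOXB2, HOXA11 and HOXA13, named after their values were seen. HOXC6, a thoracic gene, was at 4.14% (628 calls) and 17.1% (386 calls) (Fisher's exact test, adjusted p = 6.50e-11). Over sites with 5 or more calls in both samples the unweighted difference was smaller at each of the 5, at 5.19 points for HOXC6, 3.65 for HOXD1, 1.37 for HOXA11, 0.222 for HOXA13 and 0.164 for HOXB2. HOXA11 was at 4.34% and 7.73%, and HOXD1, HOXB2 and HOXA13 had the values given above. All 5 were low promoters in both samples, and within 250 bp of the start HOXC6, HOXD1, HOXB2 and HOXA13 were no longer called. Against the odds ratio over all promoters HOXA13 was not called either (adjusted p = 0.147, exact test). With the interval from 2000 bp before the start the difference at HOXB2 was -0.43 points.

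Genes that act with or beside HOX genes are given by counts, to be read against the shares over all promoters, which were 51.1% under 20% in both samples, 63.8% differing between the samples, 36.9% lower and 26.9% higher in bone sample 2. For genes other than the members the end with more CpG sites was taken as the start, since the annotation used gives no strand. Of the 9 HOX cofactors of the PBX, MEIS and PKNOX families, homeodomain proteins that bind DNA together with HOX proteins, 6 were under 20% in both samples. PBX4, the highest, was at 87.3% and 72.0%. Of the 9 cofactors 4 differed between the samples, 1 lower and 3 higher in bone sample 2. Of the 6 ParaHox and caudal genes, the evolutionary sisters and upstream regulators of HOX genes, 3 were low, with CDX2 at 3.21% and 5.70% and CDX1, the highest, at 78.0% and 63.7%. Here 4 differed, 2 in each direction.

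Of the 15 genes beside the clusters that could be measured, 12 were low in both samples. CBX5, a heterochromatin protein gene, was at 0.389% and 0.228%, and LNPK at 94.8% and 84.5% over 9 CpG sites. EVX1 and EVX2, the homeobox genes next to the group 13 ends of HOXA and HOXD, were at 2.54% and 4.43% and at 6.61% and 9.89%. Of these neighbours 10 differed between the samples, 2 lower and 8 higher in bone sample 2. Retinoic acid, the signal that acts on HOX genes in the embryo, was covered by a list of 8 genes of its receptors and metabolism and of axial patterning. Of these 5 were low, with RARG at 1.90% and 2.41% and CYP26B1 at 90.9% and 73.3%, and 5 differed, 4 of them lower in bone sample 2. Of 13 Polycomb and trithorax genes, which keep HOX genes off or on, 12 were low, with EED at 0.416% and 0.350%, and PCGF2 was at 84.3% and 69.8%. Of these 7 differed, 1 lower and 6 higher in bone sample 2.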

How the data were processed

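WGBS was performed on 2 bone samples of female Holstein cattle, 1 group with no control. After trimming, mapping with Bismark and removal of duplicates, the authors deposited raw counts for each strand of each CpG, 1 column of methylated and 1 of unmethylated calls, without normalization. The submitters' processing notes name ARS-UCD1.2, Bismark 0.19.0, Trim Galore 0.4.5 and FastQC 0.11.5, whereas the paper names another build and other versions. Lambda DNA added to the libraries was not analysed here. From the counts, the strands were summed and weighted levels computed. Genes were placed with the RefSeq annotation of assembly ARS-UCD2.0, of which no coordinates are given. CpG density peaked at its gene ends on 30 of 30 chromosomes and, within 250 bp, in 226 of 226 blocks of 10 Mb. It gives no strand, so HOX genes were read in the known order of their clusters, and for other genes the end richer in CpG sites was used, as it is the 5′ end at 28 of 38 members. No sequence was used. The members, lists and tests were chosen with earlier results of these data known. Values per sample are given for the 8 highest and 5 lowest members by mean level, the 5 largest differences past an adjusted p of 0.05 and the ends of each cluster. Further members, EVX1, EVX2 and marker genes were named after their values were seen. Other genes are named from their lists, highest and lowest first. Fisher's exact test was tried on simulated data with independent calls at the real depths. Calls on a read are not independent, so this says nothing about false calls in these data. The alternatives tried were the minimum of calls, the promoter interval, the thresholds, unweighted means, single strands, the deepest 0.1% of cytosines, window and cluster extents and each sample left out. Values from the last 3000 bp of genes, from sites shared by both samples and from both ends of every gene were added after seeing the data. The software was scipy 1.17.1, pandas 2.3.3 and numpy 2.4.6 under Python 3.11.15, with figures from matplotlib 3.10.9.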

Additional observations from a re-analysis of the deposited data

How the results depend on the processing

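Depth limited single sites more than sums, with 6.68 calls per site at HOX promoters in bone sample 2, and with 2 samples a mean without 1 of them says nothing about stability. No paired analysis was possible because only 1 group of samples exists. The number of HOX promoters under 20% in both samples, 26, lay from 18 with a threshold of 10% to 29 with 30%, was 23 over the last 3000 bp of the genes, and was 26 to 28 with either replicate left out. The median HOX promoter level, 8.27%, was 7.62% from 250 bp before to 250 bp after the start, 12.8% from 2000 bp before it, 9.19% as an unweighted mean, 10.3% on the bottom strand and 13.8% over the last 3000 bp, and 7.89 to 8.65% without either replicate. Promoters that differed, 20, numbered 4 with 20 points or more, a stricter set by construction, where the share over all promoters was 15.5%. They numbered 7 with the short interval, for which the share over all promoters was not counted. HOXC methylation, 16.4%, was 15.6% on the top and 17.1% on the bottom strand, 16.9% with 5000 bp added at each end and 16.4% unweighted, shifts past an SD that is itself small. Leaving out a replicate gave 30.6 to 37.1% for HOXA, 28.1 to 32.1% for HOXB, 16.4 to 16.5% for HOXC, 18.9 to 21.8% for HOXD and 40.1 to 43.2% for windows under 20%. That share, 41.6%, was 46.9% with 50 calls, 20.5% with a threshold of 10% and 51.8% with 30%. Differences that changed sign, in points of bone sample 2 minus bone sample 1, were HOXC12 at 2.95, HOXD9 at 0.82, HOXB5 at -8.72, HOXB8 at 0.425, HOXC10 at 1.39, HOXD4 at 0.213 and HOXD8 at 1.23 with the short interval. From 2000 bp before the start they were HOXB2 at -0.43, HOXB4 at 3.83, HOXB8 at 5.66, HOXD4 at 4.02, HOXC5 at 3.67, HOXD9 at 0.836, HOXB9 at 1.89, HOXC8 at 4.32, HOXC9 at 1.57, HOXC10 at 0.522, HOXC11 at 0.00727 and HOXD8 at 2.42, of which HOXB4, HOXB8, HOXD4 and HOXC5 passed the test. On the top strand they were HOXB13 at 1.36, HOXB7 at 0.175, HOXB8 at 0.336, HOXC11 at 4.99 and HOXD4 at 0.926, and on the bottom strand HOXA10 at 21.9, HOXB6 at 1.26, HOXA5 and HOXA6 at 4.06, HOXA9 at -0.916, HOXB5 at -1.90, HOXC10 at 3.88, HOXD8 at 1.34 and HOXD10 at 3.46. Over shared sites they were HOXD9 at 0.392, HOXB5 at -5.29 and HOXD13 at -2.27. The causes were not tested. Without the deepest cytosines, and with 10 or 50 calls, no HOX promoter result changed. With both ends of every gene counted as starts, 27.6% of all promoters were under 20% in both samples in place of 51.1%.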

Other observations

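The HOX clusters also hold microRNA genes, whose surroundings were measured from 500 bp before to 500 bp after the annotated gene, a choice made after the clusters had been seen. Those of the miR-196 and miR-10 families are known to act on HOX transcripts, among other targets. MIR196B in HOXA was at 6.74% (1098 calls) in bone sample 1 and 15.4% (241 calls) in bone sample 2. MIR196A-2 in HOXC, a gene of the same family, was at 15.8% (298 calls) and 12.6% (238 calls), while MIR196A-1 in HOXB was at 86.3% (241 calls) and 53.6% (140 calls). MIR10A in HOXB was at 16.8% (197 calls) and 20.9% (325 calls), and MIR10B in HOXD at 78.3% (267 calls) and 53.4% (283 calls). Within each of these families the gene highest in methylation was the same in both samples. MIR615 in HOXC was at 4.69% and 2.26%, and MIR2886 in HOXB at 13.9% and 24.8%. The difference between family members was not tested.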
